A study of Homo sapiens with 30 samples.

Results

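The 10 genes described here, ATF4, DDIT3, TRIB3, CHAC1, SLC7A11, ASNS, PHGDH, PSAT1, SHMT2 and MTHFD2, form the ATF4 arm of the amino acid stress response together with enzymes that make serine and load its carbon onto folate. They were picked by GENCODE 29 symbol from 60554 gene identifiers, and all 10 of 10 were found and passed the filter on low counts. RNA was counted in 5 human cell lines derived from T-cell acute lymphoblastic leukaemia (T-ALL): TALL-1, MOLT-16, PEER, PER-117 and Loucy. Cells of each line received 1 µM decitabine (DAC; 3 libraries per line) or the solvent DMSO (3 libraries per line) for 48 h, giving 30 libraries in 10 groups. Decitabine is a cytidine analogue that is built into DNA and traps DNA methyltransferases. All groups were grown in RPMI-1640 with fetal calf serum, so the controls share the culture medium and its amino acids. The question put to the data was how strongly each line expresses these genes without the drug, and whether the drug changes them alike in every line. In such bulk samples, fewer cells of a kind and less RNA per cell cannot be told apart.

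ATF4 is a transcription factor whose protein is made preferentially when the initiation factor eIF2 is phosphorylated, as happens in amino acid shortage, heme shortage, infection or an overloaded endoplasmic reticulum. With its partners it switches on genes for amino acid import, amino acid synthesis and tRNA charging, and with lasting stress also DDIT3 (CHOP), a factor linked to cell death. PHGDH and PSAT1 catalyse the opening steps of serine synthesis from a glycolysis intermediate, and SHMT2 and MTHFD2 pass the carbon of serine to mitochondrial folate, which feeds purine and thymidylate synthesis in dividing lymphoblasts.

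ATF4 and its partner factors bind a composite element whose letters are TGATGNAA. This motif was searched on both strands of RefSeq promoter windows (GRCh38.p14), each running from 250 bases before to 50 bases after a transcription start. Of the 10 genes, 8 had such a window: ATF4, DDIT3, TRIB3, CHAC1, ASNS, PHGDH, PSAT1 and MTHFD2. The motif was found in 2 of the 8, CHAC1 and ASNS, against 4.46% of the 27305 genes with a window and 3.62% of all 35116 windows. The stricter TGATGCAA was found in 1 of the 8, CHAC1, and in 1.08% of all genes with a window. Part of each of these promoters is shown because CHAC1 and ASNS are the members whose windows hold the element, and PSAT1 because it was at or near 0 reads in Loucy. In the first and second sequences the capitals mark the motif, read on the reverse strand in CHAC1 at bases -209 to -202 from the start and on the gene's own strand in ASNS at bases -68 to -61. In the PSAT1 sequence the capitals mark CpG dinucleotides, the sites that DNA methyltransferases methylate.
CHAC1, chr15:40953221-40953325, plus strand: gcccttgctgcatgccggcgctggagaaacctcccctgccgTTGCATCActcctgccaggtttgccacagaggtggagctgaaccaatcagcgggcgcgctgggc
ASNS, chr7:97872413-97872532, minus strand: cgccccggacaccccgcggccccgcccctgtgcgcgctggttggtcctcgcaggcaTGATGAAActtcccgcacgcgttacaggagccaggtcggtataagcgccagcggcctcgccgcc
PSAT1, chr9:78296975-78297124, plus strand: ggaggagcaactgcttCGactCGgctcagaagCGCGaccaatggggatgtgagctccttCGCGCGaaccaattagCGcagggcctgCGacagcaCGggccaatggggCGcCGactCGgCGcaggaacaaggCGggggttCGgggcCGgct
The whole 300-base windows held from 15 CpGs in PHGDH to 38 in TRIB3, with 37 in PSAT1, against a median of 14 over all windows and quartiles of 4 and 28. A match to these letters describes the sequence and no binding or methylation was measured.

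The genes lie apart in the genome, apart from DDIT3 and SHMT2, which share chromosome 12 (DDIT3 at 57516588 to 57521737, SHMT2 at 57229327 to 57234935, GRCh38, GENCODE 29). DDIT3 overlaps MARS and MBD6 on the other strand, and over all libraries 6188 reads fell on its own strand and 11963 on the opposite one. The counts used here are those on the gene's own strand. For the other 9 members the opposite strand held at most 0.355% as many reads as the gene, and the pseudogenes of ATF4, ASNS, PSAT1 and MTHFD2 held at most 0.104% of their gene's reads, for ASNS.

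Depth, in M gene reads, was lowest in MOLT-16 (from 2.20 to 5.26), TALL-1 (from 2.49 to 6.54) and PEER (from 2.82 to 10.6), and higher in PER-117 (from 9.93 to 15) and Loucy (from 10.2 to 15.4). Levels are given as CPM, counts scaled to the size of the library. Of 9 T-cell markers, those with a mean of at least 1 CPM numbered 9 in PEER, 9 in TALL-1, 8 in MOLT-16, 7 in Loucy and 4 in PER-117. Their summed level was lower without overlap in 4 lines: 1382 to 1528 CPM in DAC libraries and 1843 to 1991 CPM in DMSO libraries of TALL-1, 1267 to 1433 CPM in DAC libraries and 1529 to 1797 CPM in DMSO libraries of MOLT-16, 883 to 897 CPM in DAC libraries and 946 to 1044 CPM in DMSO libraries of Loucy, and 196 to 203 CPM in DAC libraries and 328 to 349 CPM in DMSO libraries of PER-117. Marker levels in this paragraph are scaled to all gene reads of the library, without the TMM scaling used for the 10 genes. With TMM scaling the T-cell sum was also lower without overlap in PEER. It was 1070 to 1147 CPM in DAC libraries and 1197 to 1387 CPM in DMSO libraries there. The single T-cell markers did not all follow the sum in Loucy, where 3 of the 9 were called higher and 1 lower, with a median log2 change of 0.17. Of all genes in Loucy 10.6% rose and 4.13% fell. The sum of 5 myeloid markers was higher without overlap in Loucy (44.7 to 45.6 CPM in DAC libraries and 11.7 to 14.6 CPM in DMSO libraries), PEER (6.59 to 13.1 CPM in DAC libraries and 1.72 to 3.42 CPM in DMSO libraries) and MOLT-16 (6.37 to 8.75 CPM in DAC libraries and 3.29 to 5.94 CPM in DMSO libraries). The sum of 5 B-cell markers was higher without overlap in MOLT-16 (13.2 to 20.9 CPM in DAC libraries and 4.99 to 10.4 CPM in DMSO libraries). The sum of 4 fibroblast markers was higher in Loucy (5.31 to 6.76 CPM in DAC libraries and 0.0734 to 0.236 CPM in DMSO libraries) and PEER (13.7 to 14.9 CPM in DAC libraries and 4.37 to 11.3 CPM in DMSO libraries) and lower in MOLT-16 (0.455 to 2.09 CPM in DAC libraries and 2.14 to 4.09 CPM in DMSO libraries). The sum of 5 erythroid markers was higher in PER-117 (5.39 to 8.15 CPM in DAC libraries and 0 to 0.0921 CPM in DMSO libraries) and lower in TALL-1 (0 CPM in DAC libraries and 0.448 to 1.43 CPM in DMSO libraries). The part of these changes in the results was not tested. In 3 DMSO libraries, genes restricted to another line stood at a median of 9.36% to 18.7% of their level in that line. Elsewhere among DMSO libraries the highest such median was 0.444%. These are TALL-1 DMSO replicate 3 and MOLT-16 DMSO replicate 3, both with PEER transcripts, and PEER DMSO replicate 2, with MOLT-16 transcripts. The medians rest on few genes: 4 restricted to PEER, 4 to MOLT-16, 11 to Loucy and 7 to PER-117. Genes restricted to TALL-1 were not examined, so transcripts of TALL-1 in another line would not have been seen. The decitabine libraries were not examined in this way. Values rest on all 30 libraries unless said otherwise, and for the levels and responses of the 10 genes those without the 3 libraries are added where a call changes. Leaving out the 3 libraries also removes low DMSO values. Of the 10 genes, 0 in the PEER library, 2 in the TALL-1 library and 0 in the MOLT-16 library stood above their group mean. No decitabine library was left out in that fit. Whether the transcripts of another line account for these low values was not tested.

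**Figure D1:**
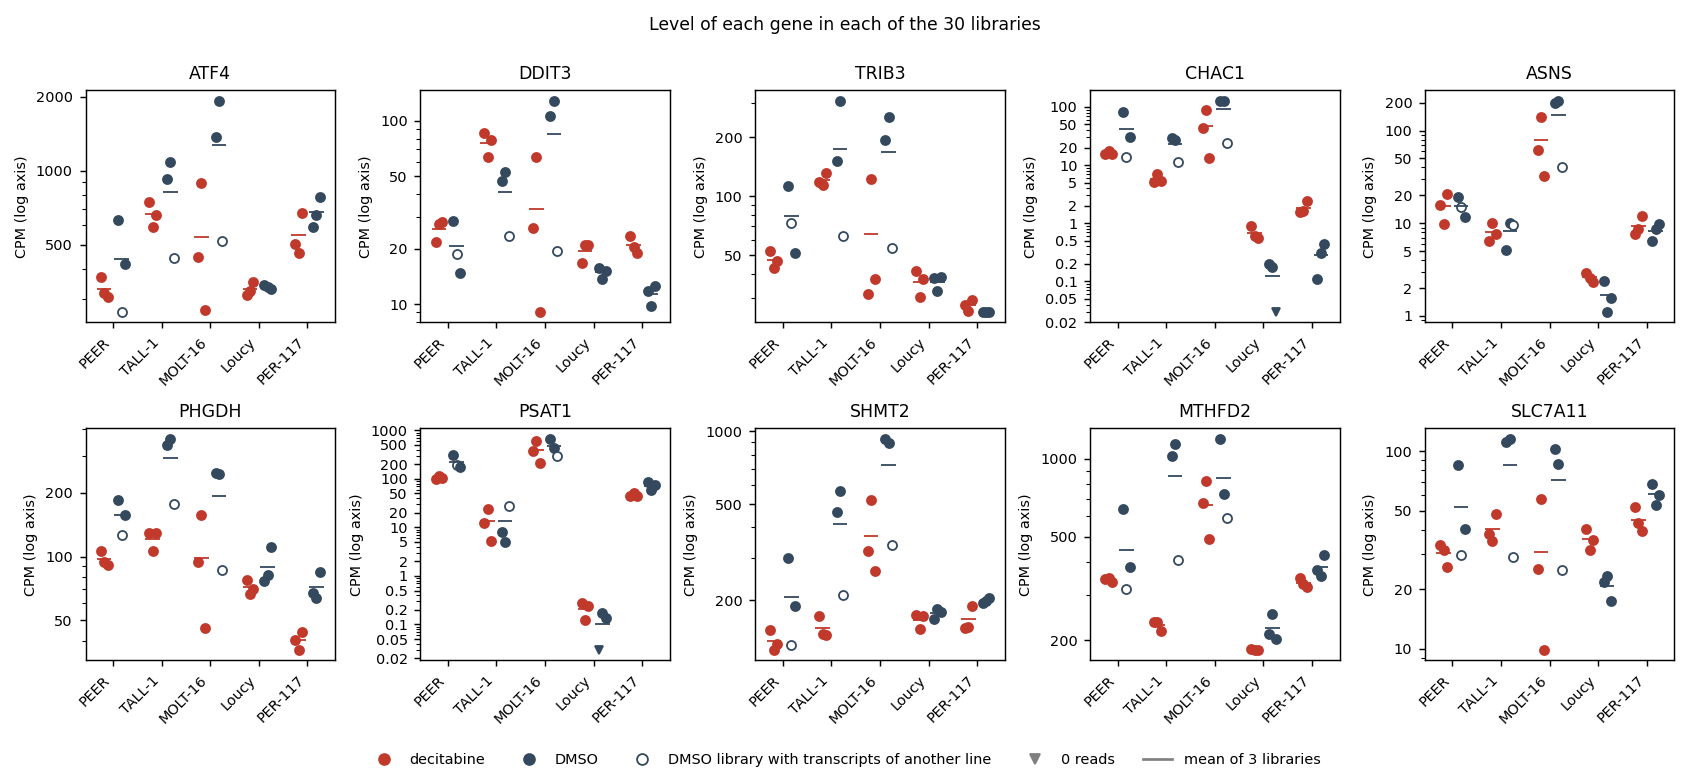
Level of each of the 10 genes in CPM (counts scaled to library size, log axis) in every library, by line, with decitabine in red to the left of DMSO in dark blue; bars are means of 3 libraries, open circles the 3 DMSO libraries that held transcripts of another line, and triangles libraries with 0 reads, drawn at the foot of the axis. In TALL-1 the 3 decitabine libraries lie at 217 to 236 CPM for MTHFD2, below all 3 DMSO libraries; in MOLT-16 the libraries of both treatments spread widely for nearly every gene.

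In untreated cells all 10 genes differed among the 5 lines (edgeR quasi-likelihood F test, 4 degrees of freedom, highest Benjamini-Hochberg adjusted p = 0.00258, for SLC7A11), a result shared by 91.6% of all genes tested. Among the 100 comparisons of a gene between a pair of lines, 70 were called at an adjusted p under 0.05, where 42.8% to 61.3% of all genes were called in such pairs. Between neighbours in the order of levels, 16 of 40 were called, or 24 of 40 without the 3 libraries. MOLT-16 or TALL-1 stood at the top for every one of the 10 genes, and Loucy or PER-117 at the bottom, in the means over all DMSO libraries.

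ATF4 averaged 1273 ± 709.6 CPM in MOLT-16, 818 ± 335 in TALL-1, 677 ± 98.8 in PER-117, 438 ± 182 in PEER and 337 ± 6.58 in Loucy (SD, n = 3 DMSO libraries each, here and below). With all libraries no neighbours in this order passed the test, and without the 3 libraries MOLT-16 was above TALL-1 (log2 0.75, adjusted p = 0.0262) and PEER above Loucy (log2 0.63, adjusted p = 0.0305). DDIT3 averaged 84.8 ± 57.8 CPM in MOLT-16, 41.0 ± 15.4 in TALL-1, 20.6 ± 6.94 in PEER, 14.9 ± 1.03 in Loucy and 11.4 ± 1.39 in PER-117, and among neighbours MOLT-16 over TALL-1 was called (log2 1.05, adjusted p = 0.0476), and without the 3 libraries also TALL-1 over PEER (adjusted p = 0.00822). Without DMSO replicate 3, its lowest library, the MOLT-16 mean was 1649.9 CPM for ATF4 and 117 CPM for DDIT3.

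TRIB3, a pseudokinase that ATF4 induces and that damps ATF4 activity, averaged 174 ± 124 CPM in TALL-1, 168 ± 103 in MOLT-16, 78.9 ± 30.8 in PEER, 36.4 ± 3.11 in Loucy and 25.6 ± 0.0476 in PER-117. Its steps from MOLT-16 to PEER and from PEER to Loucy were called. CHAC1, which degrades glutathione, averaged 91.7 ± 59.0 CPM in MOLT-16, 42.1 ± 35.4 in PEER and 22.6 ± 9.68 in TALL-1, but only 0.285 ± 0.162 in PER-117 and 0.124 ± 0.108 in Loucy. The step from TALL-1 to PER-117 was called (log2 6.20, adjusted p = 8.48e-07), and without the 3 libraries also those from MOLT-16 to PEER (adjusted p = 0.0108) and from PEER to TALL-1 (adjusted p = 0.0298). SLC7A11, the cystine importer that supplies glutathione synthesis, averaged 85.7 ± 49.0 CPM in TALL-1, 71.3 ± 41.0 in MOLT-16, 60.4 ± 7.43 in PER-117, 52.0 ± 29.7 in PEER and 20.9 ± 3.03 in Loucy. The step from PEER to Loucy was called, and without the 3 libraries also that from MOLT-16 to PER-117 (adjusted p = 0.0468).

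ASNS, asparagine synthetase, averaged 149 ± 94.0 CPM in MOLT-16 against 15.3 ± 3.91 in PEER, 8.32 ± 1.69 in PER-117, 8.24 ± 2.69 in TALL-1 and 1.68 ± 0.637 in Loucy. MOLT-16 was above PEER (log2 3.27, adjusted p = 1.23e-06) and TALL-1 above Loucy (log2 2.29, adjusted p = 0.00107), and without the 3 libraries PEER was also above PER-117 (adjusted p = 0.0370). PSAT1 had the widest range and was the one gene with all 10 pairs of lines called: it averaged 467 ± 192 CPM in MOLT-16, 227 ± 72.9 in PEER, 72.4 ± 13.4 in PER-117, 13.5 ± 12.3 in TALL-1 and 0.104 ± 0.0920 in Loucy. In TALL-1 the 3 DMSO libraries held 8.16, 4.92 and 27.6 CPM, and the highest is replicate 3, the library with PEER transcripts, without which the TALL-1 mean was 6.54 CPM. Loucy had 5 PSAT1 reads in all of its DMSO libraries together. PHGDH, the first enzyme, spanned a narrower range, with 291 ± 99.3 CPM in TALL-1, 194 ± 92.9 in MOLT-16, 157 ± 29.6 in PEER, 89.6 ± 18.3 in Loucy and 71.5 ± 11 in PER-117, and only the step from PEER to Loucy was called.

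SHMT2, the mitochondrial serine hydroxymethyltransferase, averaged 722 ± 333 CPM in MOLT-16, 413 ± 182 in TALL-1, 206 ± 85.7 in PEER, 199 ± 4.91 in PER-117 and 177 ± 8.09 in Loucy. MOLT-16 over TALL-1 and TALL-1 over PEER were called. MTHFD2, the mitochondrial methylenetetrahydrofolate dehydrogenase, averaged 857 ± 395 CPM in TALL-1, 839.5 ± 315 in MOLT-16, 447 ± 171 in PEER, 384 ± 38.6 in PER-117 and 223 ± 26.8 in Loucy. MOLT-16 over PEER and PER-117 over Loucy were called, and without the 3 libraries also PEER over PER-117 (adjusted p = 0.0406).

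With all 30 libraries TALL-1 was the only line with genes past the adjusted threshold in edgeR. PHGDH of the serine pathway and both mitochondrial folate enzymes were lower in its treated cells. By the median log2 change of the 10 genes MOLT-16 was lower still, at -0.98. Of the 10 genes, 4 fell (CHAC1, PHGDH, SHMT2 and MTHFD2) and 0 rose, against 6.12% of all genes that fell and 6.74% that rose in this line, 12.9% in all. At an unadjusted p under 0.05 there were 5 lower and 1 higher, against 26.7% of all genes in either direction and 13.6% lower, and DESeq2 called 4, against 15% of all genes. The median log2 change of the 10 genes was -0.81, against 0.00 over all genes tested. Without TALL-1 DMSO replicate 3 and the other 2 libraries, SLC7A11 and TRIB3 also fell, which makes 6 of 10 against 6.49% of all genes that fell and 7.46% that rose, with a median of -1.22.

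MTHFD2 had 236, 235 and 217 CPM in TALL-1 DAC libraries, against 1027, 1139 and 406 CPM in DMSO libraries. Every treated library was lower than every DMSO library, and the lowest DMSO value is replicate 3. The log2 change was -1.90 ± 0.28 (SE; edgeR adjusted p = 2.33e-05), or -2.24 without the 3 libraries (adjusted p = 2.72e-10). SHMT2 had 171, 145 and 144 CPM in DAC libraries, against 464, 565 and 211 CPM in DMSO libraries. These groups did not overlap, and the log2 change was -1.43 ± 0.31 (adjusted p = 0.00243), or -1.75 without the 3 libraries. PHGDH had 129, 106 and 129 CPM in DAC libraries, against 335, 361 and 178 CPM in DMSO libraries. The groups did not overlap and the log2 change was -1.27 ± 0.32 (adjusted p = 0.00726), or -1.53 without the 3 libraries. The 3 calls held whichever of the 6 TALL-1 libraries was left out.

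CHAC1 had 5.06, 6.88 and 5.35 CPM in TALL-1 DAC libraries, against 29.2, 27.1 and 11.5 CPM in DMSO libraries, again without overlap. Its log2 change was -1.92 ± 0.64 (adjusted p = 0.0438), or -2.25 without the 3 libraries (adjusted p = 0.000456). The call was lost when any TALL-1 library except DMSO replicate 3 was left out, with adjusted p up to 0.132. SLC7A11 had 38.2, 35 and 48.2 CPM in DAC libraries, against 112, 116 and 29.2 CPM in DMSO libraries, so that DMSO replicate 3 alone lies below the treated cells. Its log2 change was -1.09 ± 0.45 (adjusted p = 0.115), or -1.52 without the 3 libraries (adjusted p = 0.000379).

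The transcription factors themselves did not pass the test in TALL-1. ATF4 had 749, 591 and 659 CPM in DAC libraries, against 925, 1086 and 443 CPM in DMSO libraries (log2 -0.30 ± 0.36, adjusted p = 0.648). DDIT3 had 86.2, 63.2 and 78.8 CPM in DAC libraries, against 47.2, 52.4 and 23.5 CPM in DMSO libraries. Every treated library was above every DMSO library, but the log2 change of 0.90 ± 0.43 did not pass the adjusted threshold (adjusted p = 0.183, or 0.201 without the 3 libraries). TRIB3 had 118, 114 and 132 CPM in DAC libraries, against 152, 309 and 62.8 CPM in DMSO libraries, so that DMSO replicate 2 is far above and replicate 3 below the treated cells. Its log2 change was -0.52 ± 0.44 (adjusted p = 0.482), -0.93 without the 3 libraries (adjusted p = 0.0370) and 0.17 without DMSO replicate 2 (adjusted p = 0.875). ASNS was close under both treatments, with a mean of 8.09 ± 1.91 CPM in DAC libraries and 8.24 ± 2.69 CPM in DMSO libraries. PSAT1 had 12.4, 23.6 and 5.35 CPM in DAC libraries against 8.16, 4.92 and 27.6 CPM in DMSO libraries. The log2 change was 0.09, and 1.20 without the 3 libraries (adjusted p = 0.0839). For 5 of the 10 genes the TALL-1 groups did not overlap, MTHFD2, SHMT2, PHGDH and CHAC1 lower and DDIT3 higher. Of all genes 14.1% were lower and 15.5% higher without overlap.

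**Figure D2:**
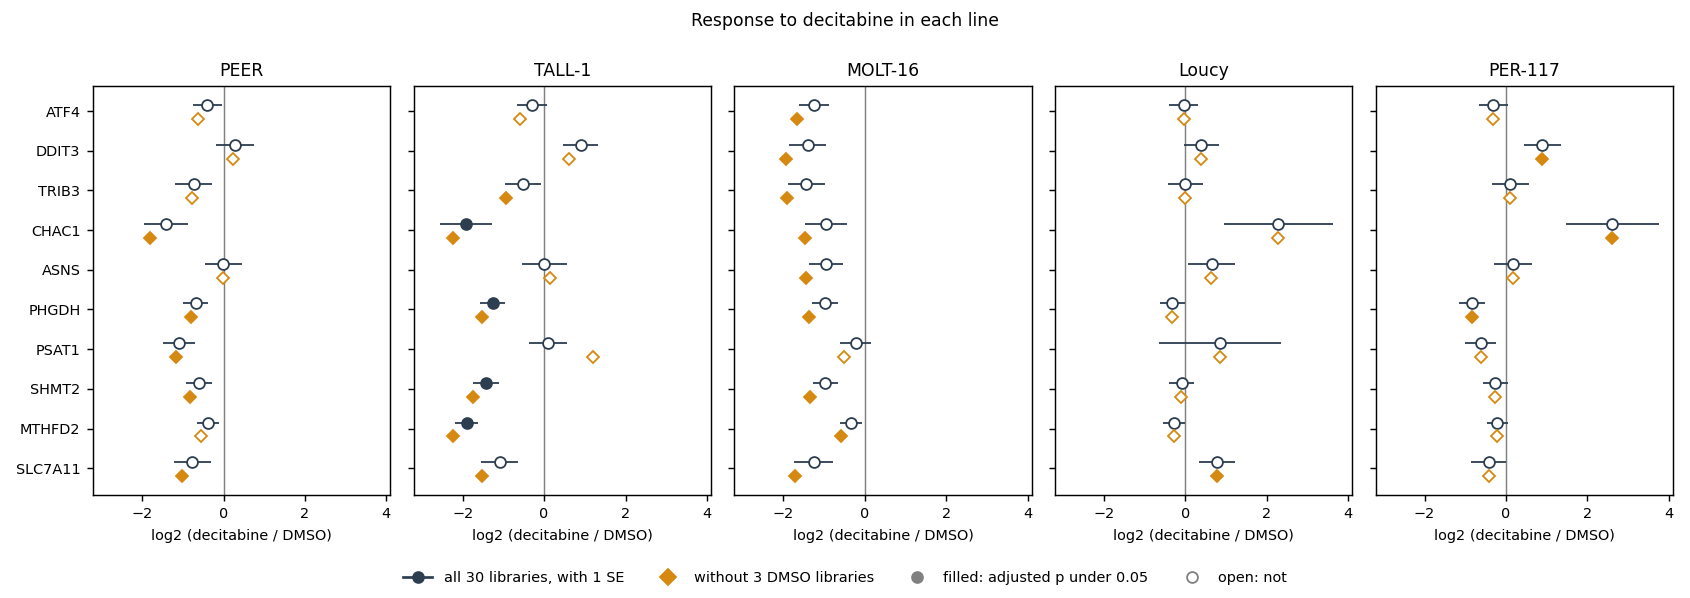
Log2 change of each gene, decitabine over DMSO, in each line: circles with bars are the estimate and 1 SE from all 30 libraries, diamonds the estimate without the 3 DMSO libraries that held transcripts of another line, and filled symbols have an adjusted p under 0.05. In TALL-1, 4 circles are filled, from -1.27 for PHGDH to -1.92 for CHAC1; in MOLT-16 no circle is filled but 9 of 10 diamonds are.

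In MOLT-16 every one of the 10 genes had a negative log2 change, with a median of -0.98 against -0.01 over all genes, but the libraries of each treatment were far apart. Without DMSO replicate 1 PSAT1 stood at 0.14 and MTHFD2 at -0.0028, and without DAC replicate 3 PSAT1 stood at 0.083. With all 30 libraries 0 of 10 genes passed the adjusted threshold in edgeR (1.01% of all genes fell and 2.19% rose, 3.2% in all), while 7 of 10 had an unadjusted p under 0.05, all lower, against 9.22% of all genes lower and 19.7% in either direction. DESeq2 called 2, ATF4 and SHMT2, against 5.28% of all genes. For none of the 10 were the groups without overlap, where 7.33% of all genes were lower and 9.18% higher without overlap. Without the 3 libraries 9 of 10 fell (all except PSAT1), against 7.93% of all genes that fell and 9.78% that rose, with a median of -1.46. That fit drops DMSO replicate 3, where the 10 genes averaged -1.16 log2 units from their group mean. It keeps DAC replicate 3, where they averaged -0.90. Leaving out DMSO replicate 3 of MOLT-16 alone gave 8 calls, against 12.6% of all genes, and leaving out its DAC replicate 2 alone gave 7, against 2.38%.

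ATF4 had 445, 888 and 272 CPM in MOLT-16 DAC libraries, against 1373, 1927 and 519 CPM in DMSO libraries. The treated replicate 2 lies above DMSO replicate 3, and the groups overlap only there. The log2 change was -1.25 ± 0.36 (adjusted p = 0.0541), or -1.67 without the 3 libraries (adjusted p = 3.34e-05). DDIT3 had 26.1, 63.6 and 9.08 CPM in DAC libraries, against 106, 129 and 19.4 CPM in DMSO libraries, a log2 change of -1.41 ± 0.46 (adjusted p = 0.0843), or -1.94 without the 3 libraries. TRIB3 had 31.7, 122 and 37.9 CPM in DAC libraries, against 193, 256 and 54.2 CPM in DMSO libraries, a log2 change of -1.44 ± 0.46, or -1.92 without the 3 libraries. In each of these genes the DMSO replicate 3 lies within the range of the treated cells and the other DMSO replicates above it.

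ASNS, SLC7A11 and SHMT2 had the same layout. ASNS had 61.1, 141 and 32.0 CPM in MOLT-16 DAC libraries, against 196, 209.9 and 40.7 CPM in DMSO libraries (log2 -0.95 ± 0.41, or -1.45 without the 3 libraries). SLC7A11 had 25.5, 57.2 and 9.87 CPM in DAC libraries, against 103, 86.1 and 24.9 CPM in DMSO libraries (log2 -1.25 ± 0.48, or -1.72). SHMT2 had 320.4, 518 and 265 CPM in DAC libraries, against 932, 898 and 338 CPM in DMSO libraries (log2 -0.98 ± 0.31, or -1.35). CHAC1 (log2 -0.96 ± 0.52, or -1.47) and PHGDH (log2 -0.98 ± 0.32, or -1.38) were also lower in value. MTHFD2, the member with the smallest p in TALL-1, had 677, 819 and 489 CPM in MOLT-16 DAC libraries, against 1194, 731 and 593 CPM in DMSO libraries, a log2 change of -0.34 ± 0.27 (adjusted p = 0.490) that reached -0.57 without the 3 libraries (adjusted p = 0.0251). PSAT1 passed in neither fit, at 379, 614 and 209.6 CPM in DAC libraries against 673, 434 and 293 CPM in DMSO libraries.

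In PEER 0 of 10 genes passed the adjusted threshold with all 30 libraries in edgeR, against 0.961% of all genes that fell and 3.54% that rose (4.5% in all), and DESeq2 also called 0, against 5.4% of all genes. At an unadjusted p under 0.05 there were 3, all lower (PSAT1, CHAC1 and PHGDH), against 8.16% of all genes lower and 18.3% in either direction. Without the 3 libraries 5 of 10 fell (CHAC1, SHMT2, PSAT1, PHGDH and SLC7A11), against 0.896% of all genes that fell and 4.7% that rose. The median log2 change was -0.64, or -0.78 without the 3 libraries, against -0.02 over all genes. PSAT1 had 100.3, 114 and 106 CPM in PEER DAC libraries, against 310.5, 196 and 175 CPM in DMSO libraries. Its groups did not overlap, and the log2 change was -1.09 ± 0.39 (adjusted p = 0.113), or -1.17 without the 3 libraries (adjusted p = 0.0116). CHAC1 had 15.3, 17.1 and 15.6 CPM in DAC libraries, against 81.9, 13.9 and 30.4 CPM in DMSO libraries, and its log2 change was -1.41 ± 0.54 (adjusted p = 0.147), or -1.81 without the 3 libraries (adjusted p = 0.00130). DMSO replicate 1 is the highest DMSO library for CHAC1 and replicate 2, with MOLT-16 transcripts, the lowest. Without replicate 1 the CHAC1 change was -0.46 (adjusted p = 0.710). PHGDH had 106, 94.3 and 91.5 CPM in DAC libraries, against 186, 127 and 157 CPM in DMSO libraries, without overlap (log2 -0.68 ± 0.31, adjusted p = 0.240, or -0.79 without the 3 libraries). For 2 of the 10 genes, PSAT1 and PHGDH, the groups did not overlap, where 11.2% of all genes were lower and 12.5% higher without overlap. SHMT2 had 150.3, 125 and 132 CPM in DAC libraries, against 299, 131 and 188 CPM in DMSO libraries, with DMSO replicate 2 among the treated cells (log2 -0.60 ± 0.31, or -0.82 without the 3 libraries, adjusted p = 0.00432). SLC7A11 had 33.6, 31.6 and 26 CPM in DAC libraries, against 85.6, 29.8 and 40.5 CPM in DMSO libraries, in the same layout (log2 -0.77 ± 0.46, or -1.02 without the 3 libraries, adjusted p = 0.0326). ATF4, MTHFD2 and TRIB3 had log2 changes of -0.40, -0.38 and -0.73, ASNS 0.00 and DDIT3 0.29, and none of these 5 passed in either fit. Without DMSO replicate 1, the highest DMSO library for all 10 genes, the log2 change was -0.18 for SLC7A11, -0.22 for SHMT2, -0.38 for TRIB3, -0.03 for ATF4 and -0.02 for MTHFD2.

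In Loucy 0 of 10 genes passed the adjusted threshold in edgeR and 0 had an unadjusted p under 0.05, where 4.13% of all genes fell and 10.6% rose (14.7% in all), and 27.6% had an unadjusted p under 0.05, 9.99% lower. DESeq2 called 1, CHAC1, as higher, against 16% of all genes. Without the 3 libraries, none of which is from Loucy, 1 of 10 rose, SLC7A11, against 14.5% of all genes that rose and 8% that fell. SLC7A11 had 40.5, 31.6 and 35.5 CPM in Loucy DAC libraries, against 21.8, 23.3 and 17.5 CPM in DMSO libraries. The groups did not overlap, and the log2 change was 0.78 ± 0.44 (adjusted p = 0.255), or 0.77 without the 3 libraries (adjusted p = 0.0277). CHAC1 had 0.878, 0.603 and 0.564 CPM in DAC libraries, against 0.197, 0.175 and 0 CPM in DMSO libraries. This is 30 reads in the 3 DAC libraries and 6 in the 3 DMSO libraries, a ratio of 5.80 with a 95% counting interval of 2.38 to 17.0, and the test did not pass (adjusted p = 0.284). PSAT1 had 9 reads in DAC libraries and 5 in DMSO libraries (ratio 2.09, interval 0.628 to 7.93). ATF4 was level, with 311, 324 and 351 CPM in DAC libraries against 344, 336 and 331 CPM in DMSO libraries. Among the folate enzymes, MTHFD2 had 186, 184 and 184 CPM in DAC libraries against 212, 253 and 203 CPM in DMSO libraries, without overlap, and its log2 change was -0.27 ± 0.27 (adjusted p = 0.561). SHMT2 had 174, 152 and 172 CPM in DAC libraries against 168, 184 and 178 CPM in DMSO libraries, and PHGDH 77.8, 66.4 and 70.4 CPM in DAC libraries against 76.5, 81.7 and 111 CPM in DMSO libraries, both with overlap. For 4 of the 10 genes (SLC7A11, CHAC1 and DDIT3 higher, MTHFD2 lower) the groups did not overlap, where 15.7% of all genes were lower and 23.4% higher without overlap.

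In PER-117 0 of 10 genes passed the adjusted threshold with all 30 libraries in edgeR, where 3.16% of all genes fell and 8.67% rose, 11.8% in all. At an unadjusted p under 0.05 there were 2, CHAC1 higher and PHGDH lower, against 24.1% of all genes in either direction and 8.1% lower, and DESeq2 called 1, CHAC1, against 13.4% of all genes. Without the 3 libraries, again from other lines, 2 rose (CHAC1 and DDIT3, against 11.9% of all genes) and 1 fell (PHGDH, against 5.6%). With the replicate number as a block the same 3 were called, against 12.6% of all genes: PHGDH at -0.83 (adjusted p = 0.00707), DDIT3 at 0.89 (adjusted p = 0.0272) and CHAC1 at 2.64 (adjusted p = 0.0290). The labels give no pairing, and the block was taken up because same-numbered libraries of this line correlated in these same data. Its calls are therefore no separate support. PHGDH had 40.2, 36.2 and 43.8 CPM in PER-117 DAC libraries, against 67.2, 63.3 and 84.1 CPM in DMSO libraries, without overlap (log2 -0.84 ± 0.32, adjusted p = 0.0861). DDIT3 had 23.5, 20.5 and 19.1 CPM in DAC libraries, against 11.7, 9.81 and 12.5 CPM in DMSO libraries, also without overlap (log2 0.89 ± 0.45, adjusted p = 0.227). CHAC1 had 1.55, 1.61 and 2.4 CPM in DAC libraries, against 0.112, 0.313 and 0.432 CPM in DMSO libraries. In reads this is 64 against 8, a ratio of 6.53 with a 95% counting interval of 3.12 to 15.8 (adjusted p = 0.151). In all, 8 of the 10 genes had groups that did not overlap in PER-117. PHGDH, PSAT1, SHMT2, MTHFD2 and SLC7A11 were lower, and DDIT3, TRIB3 and CHAC1 higher. Of all genes in this line 14.7% were lower without overlap and 21.6% higher.

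The difference of the response between the 5 lines was tested itself. With all 30 libraries it passed for 2 of 10 genes, MTHFD2 (F test with 4 degrees of freedom, adjusted p = 0.00872) and CHAC1 (adjusted p = 0.0390), against 13.6% of all genes, and without the 3 libraries for 10 of 10, against 27.8% of all genes. The MTHFD2 result held in all 30 fits that left out 1 library, with an adjusted p of at most 0.0407, and the CHAC1 result in 13 of 30, with up to 0.0789. For MTHFD2 the change in TALL-1 was below that in PEER (difference PEER minus TALL-1 1.52 ± 0.38, adjusted p = 0.0229), in MOLT-16 (TALL-1 minus MOLT-16 -1.56, adjusted p = 0.0150), in Loucy (TALL-1 minus Loucy -1.63, adjusted p = 0.00681) and in PER-117 (TALL-1 minus PER-117 -1.69, adjusted p = 0.00672). Of all genes, 3.11% were called between PEER and TALL-1, 5.18% between TALL-1 and MOLT-16, 8.17% between TALL-1 and Loucy and 6.58% between TALL-1 and PER-117. Between lines other than TALL-1, 0 of 60 comparisons of the 10 genes passed in edgeR, 14 of them with an unadjusted p under 0.05, where 0.252% (PEER and MOLT-16), 2.73% (PEER and Loucy), 2.02% (PEER and PER-117), 3.45% (MOLT-16 and Loucy), 1.84% (MOLT-16 and PER-117) and 3.99% (Loucy and PER-117) of all genes did. CHAC1 differed between TALL-1 and PER-117 (TALL-1 minus PER-117 -4.53 ± 1.29, adjusted p = 0.0310), on few reads in PER-117, and DDIT3 between TALL-1 and MOLT-16 (TALL-1 minus MOLT-16 2.30 ± 0.63, adjusted p = 0.0296). These are the 6 of 100 pair comparisons that passed. Without the 3 libraries there were 36, where 8.1% of all genes passed over the 10 pairs of lines together. These 36 were not confined to pairs with TALL-1. They include SLC7A11 for MOLT-16 minus Loucy (-2.48, adjusted p = 9.41e-05) and DDIT3 for MOLT-16 minus PER-117 (-2.83, adjusted p = 3.50e-05).

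The question whether the lines move alike was also put with lines as the unit. With all 30 libraries, the 3 of a group summed and the 5 lines as replicates, 0 of 10 genes passed in edgeR, as did 8 of 13830 genes in all (0.0578%). At an unadjusted p under 0.05 there were 4, all lower (ATF4, PHGDH, SHMT2 and MTHFD2), against 7.85% of all genes lower and 16.8% in either direction. PHGDH had the smallest p, with a log2 change of -0.80 ± 0.14 (adjusted p = 0.0593) and a negative change in 5 of 5 lines. ATF4, SHMT2 and MTHFD2 also had negative values in 5 of 5 lines, with log2 changes of -0.45, -0.66 and -0.60. The sign count includes values near 0 in Loucy, at -0.03 ± 0.36 for ATF4 and -0.09 ± 0.30 for SHMT2. Without Loucy DAC replicate 1 ATF4 stood at 0.01 there. How many of all genes were negative in 5 of 5 lines was not counted.

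**Figure D3:**
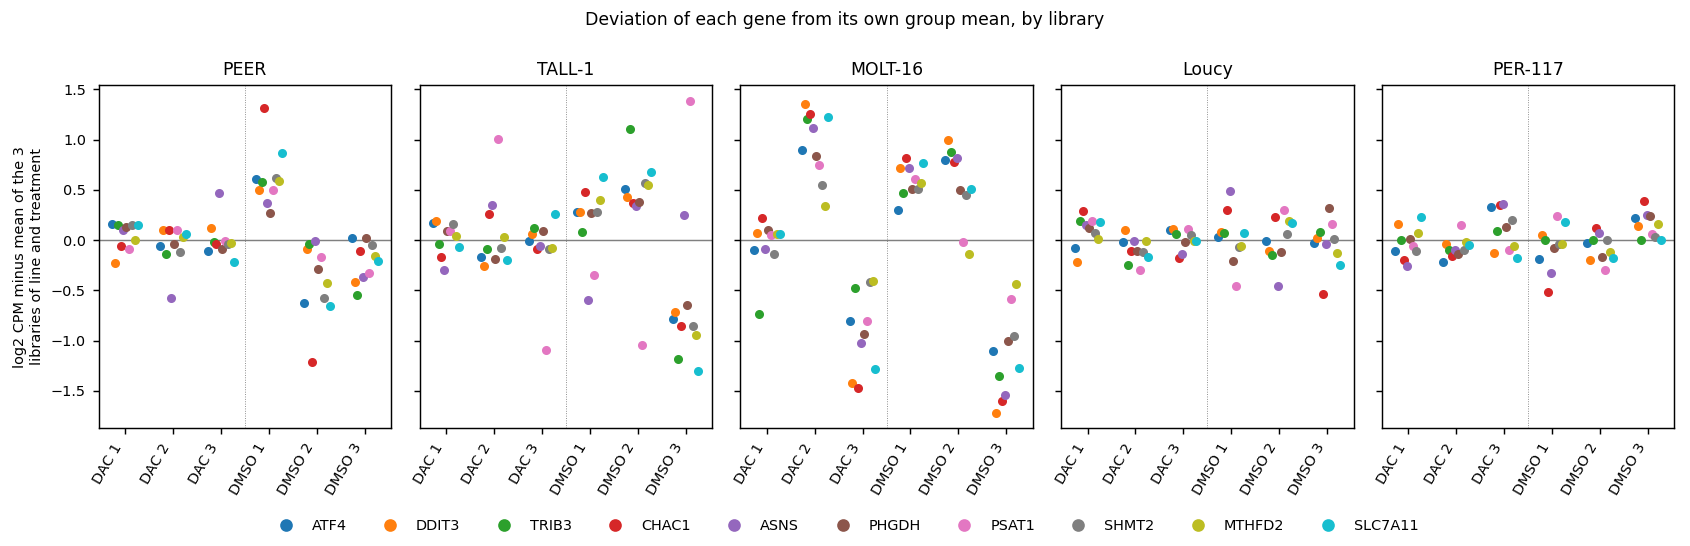
Each point is 1 gene in 1 library, as log2 CPM minus the mean of the 3 libraries of its line and treatment, with decitabine (DAC) libraries left of the dotted line and DMSO libraries right of it. In MOLT-16 all 10 genes lie above their mean in DAC 2 and all below it in DAC 3 and DMSO 3; in Loucy and PER-117 the points stay near 0.

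In several groups the genes stood on the same side of the group mean in a library. In MOLT-16 all 10 genes stood above their group mean in DAC replicate 2, by 0.95 log2 units on average, and all 10 below it in DAC replicate 3, by -0.90, although both libraries carry the same label. In MOLT-16 DMSO all 10 were above the mean in replicate 1 (0.60 on average) and all below it in replicate 3 (-1.16), and in PEER DMSO all 10 were above it in replicate 1 (0.62) and all below it in replicate 2 (-0.41). In Loucy the means of the 10 deviations stayed between -0.10 and 0.09, and in PER-117 between -0.08 and 0.15. Whether the libraries of a group were separate cultures is not given in the labels, and what sets these libraries apart was not tested.

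Across the 30 libraries, with the mean of each line subtracted, the median Pearson r over the 45 pairs of genes was 0.61. This describes libraries that share lines, treatment and depth and carries no test. The pair most alike was PHGDH and SHMT2 (r = 0.91), followed among the folate genes by SHMT2 and MTHFD2 (r = 0.88), and ATF4 and TRIB3 also stood at r = 0.88. PSAT1 stood aside, with r from 0.00 to 0.37 with the other 9 genes. Among the pairs without PSAT1 the lowest r was 0.09, for DDIT3 and MTHFD2. By the same measure the genes outside the list most like the 10 were AARS, CARS, SESN2, TXLNA and SARS, with a mean r of 0.71 to 0.69 over 30 libraries, and 0.74 to 0.69 without the 3 libraries. AARS, CARS and SARS are cytosolic tRNA synthetases for alanine, cysteine and serine, and SESN2 is a leucine sensor that restrains mTORC1.

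Genes around the 10 were counted in lists written for this comparison. Their counts stand beside the share of all genes called. With all 30 libraries 0.961% fell and 3.54% rose in PEER, 6.12% and 6.74% in TALL-1, and 1.01% and 2.19% in MOLT-16. The shares were 4.13% and 10.6% in Loucy, and 3.16% and 8.67% in PER-117. Without the 3 libraries 7.93% fell and 9.78% rose in MOLT-16. Of 20 cytosolic aminoacyl-tRNA synthetases, all tested, 10 fell in TALL-1, with a list median log2 of -0.64 against 0.00 over all genes. The methionine enzyme MARS had 36.8 ± 4.02 CPM in TALL-1 DAC libraries and 80.6 ± 3.15 in DMSO libraries (log2 -1.13 ± 0.22, adjusted p = 0.000716), and the glycine and tyrosine enzymes GARS and YARS changed by -1.09 and -0.96. In MOLT-16 5 of the 20 fell, among them WARS (-1.37), SARS (-1.15) and YARS (-0.98), and 11 fell without the 3 libraries. In Loucy VARS fell (-0.47), and in PER-117 VARS (-0.52) and FARSB (-0.45).

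Of 12 other amino acid transporters, 6 fell in TALL-1 (list median -0.79), against 6.12% of all genes. The cationic amino acid transporter SLC7A1 had 106 ± 13.6 CPM in DAC libraries and 290.2 ± 88.6 CPM in DMSO libraries (log2 -1.46 ± 0.18, adjusted p = 2.70e-06), with SLC7A3 at -1.36 and the glycine transporter SLC6A9 at -1.99. In MOLT-16 SLC43A1 and SLC38A2 fell, and 6 of 12 without the 3 libraries. In PER-117 the glutamine transporter SLC1A5 fell (-0.83), while SLC6A9 had 33 reads in DAC libraries and 0 in DMSO libraries, at least 8.97-fold higher if the DMSO group is set to 3 counts.

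The folate pathway beyond the members was also lowest in TALL-1 relative to DMSO. Of 21 tested serine, glycine and folate enzymes (of 23 listed), 9 fell in TALL-1, 4 in Loucy, 4 in PER-117 and 2 in PEER, with a list median of -0.62 in TALL-1, -0.02 in MOLT-16 and between these in the other 3 lines. Of all genes 6.12% fell in TALL-1, 4.13% in Loucy, 3.16% in PER-117 and 0.961% in PEER. MTHFD1L, which releases formate from mitochondrial folate, fell in TALL-1 (-1.57 ± 0.20), PEER (-0.82), Loucy (-0.61) and PER-117 (-0.56). FPGS, which adds glutamates to folate, and TYMS, the thymidylate synthase, fell in Loucy (-1.06 and -0.57). GGH was called in TALL-1 at -2.56, but its DMSO SD of 9.54 exceeds its DMSO mean of 6.37 CPM, and without the 3 libraries the value was 0.34 (adjusted p = 0.851).

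Upstream of ATF4, 12 genes for eIF2 kinases, phosphatase subunits and eIF2B subunits showed few calls, with list medians from -0.06 to -0.01. EIF2AK2, a kinase activated by double-stranded RNA, fell in TALL-1 (-0.58), and EIF2B3 fell in Loucy (-0.55) and PER-117 (-0.64). The other calls were all PPP1R15A (GADD34), an ATF4 and DDIT3 target that brings the phosphatase to eIF2. It rose in TALL-1 (85.8 ± 5.09 CPM in DAC libraries and 25.9 ± 3.98 in DMSO libraries, log2 1.73 ± 0.23, adjusted p = 4.57e-06), in Loucy (1.38) and in PER-117 (0.93), and fell in MOLT-16 (-1, adjusted p = 0.0214). In TALL-1 PPP1R15A was thus higher in the DAC libraries in which CHAC1, PHGDH, SHMT2 and MTHFD2 were lower.

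Of 19 tested genes in a list of other ATF4 target and stress genes (of 22 listed, 21 matched), those called were 1 higher and 1 lower in PEER, 2 lower in TALL-1, 1 higher and 1 lower in MOLT-16, 4 higher in Loucy, and 3 higher and 1 lower in PER-117. GDF15, a secreted stress cytokine, rose in 4 lines: PER-117 (29.6 ± 6.90 CPM in DAC libraries and 3.65 ± 1.22 in DMSO libraries, log2 3.02 ± 0.37), MOLT-16 (3.17), PEER (3.02) and Loucy (1.51). Its DMSO groups held only 7 reads in PEER and 9 in MOLT-16. DDIT4, which restrains mTORC1, fell in PEER (-0.96) and MOLT-16 (-1.21) and rose in PER-117 (1.55). In Loucy FAM129A and GPT2 rose, with 169 reads in DAC libraries against 3 in DMSO libraries (ratio 65.4, interval 22.0 to 320.1) and 241 against 5 (ratio 55.9, interval 23.6 to 174). In TALL-1 PCK2 (-1.40) and CTH (-1.30) fell. CTH rose in PER-117 on few reads, with 51 in DAC libraries against 5 in DMSO libraries (ratio 8.32, interval 3.34 to 26.7).

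The other arms of endoplasmic reticulum stress and the NRF2 response, which shares SLC7A11 with ATF4, had few calls. Of 19 chaperone and IRE1 or ATF6 arm genes, 0 to 2 were called per line, and CRELD2 rose in 4 lines, from 0.48 in Loucy to 0.74 in PEER, while XBP1 fell in PER-117 (-0.54). Without the 3 libraries MOLT-16 had 8 of these genes higher and 5 lower, against 9.78% of all genes higher and 7.93% lower. Of 9 tested NRF2 targets (of 12), NQO1 rose in PEER (1.49), Loucy (1.68) and PER-117 (1.83), HMOX1 in PEER (1.92), GCLM in PER-117 (0.43) and OSGIN1 in Loucy (2.4, with 43 reads in DAC libraries and 8 in DMSO libraries). TALDO1 and PGD, enzymes of the pentose phosphate pathway, fell in TALL-1 (-0.51 and -0.43), PGD not without the 3 libraries (adjusted p = 0.0713).

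**Figure D4:**
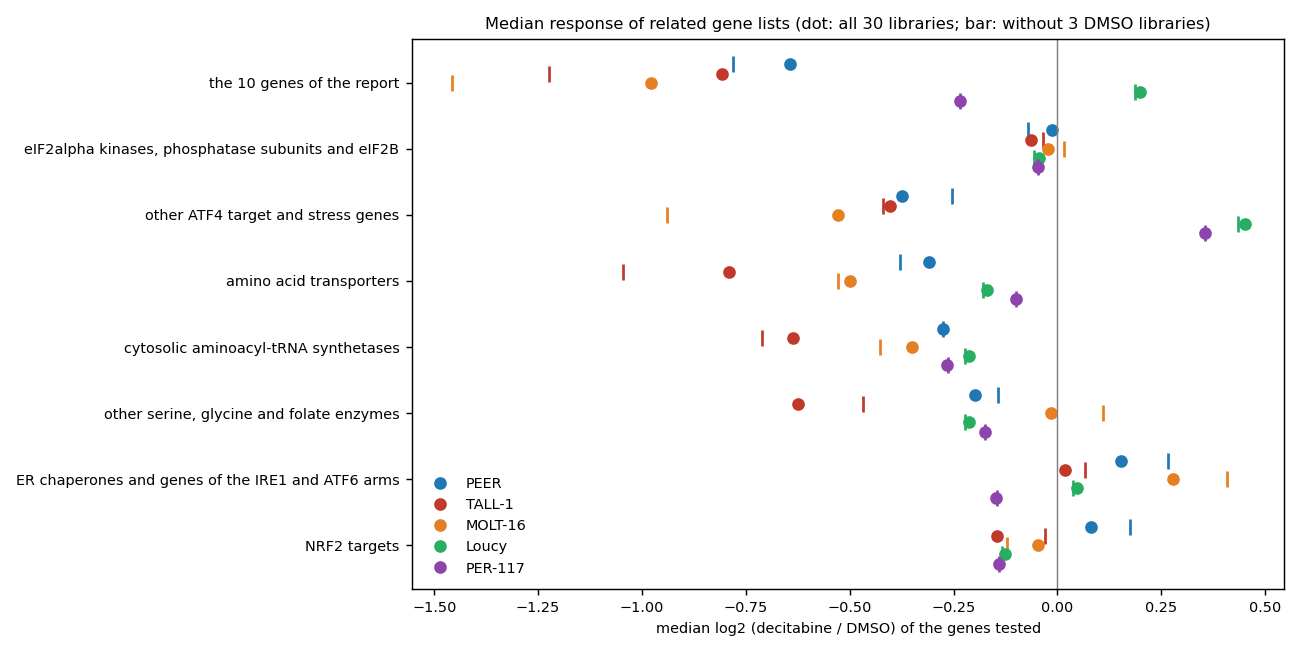
Median log2 change, decitabine over DMSO, of the tested genes of each list in each line (dots, all 30 libraries; bars, without the 3 DMSO libraries that held transcripts of another line). TALL-1 lies at -0.81 for the 10 genes, -0.79 for amino acid transporters and -0.64 for tRNA synthetases, while all lines lie near 0 for the eIF2 genes.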

How the data were processed

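Gene expression was measured in 30 QuantSeq 3′ mRNA-Seq FWD libraries of 5 T-ALL cell lines. The submitters' processing notes name STAR 2.4.2a, DESeq2 and the build GRCh38 (hg38) without saying how each was used; the annotation behind the counts was not given in the sources used here. The deposited values are raw read counts per gene, and the column for the gene's own strand was used. Symbols and positions came from GENCODE 29 (56996 of 60554 identifiers).

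All 30 libraries were fitted in edgeR 4.0.16 (R 4.3.3) with 10 group means, TMM scaling, filterByExpr with a minimum count of 10 (15081 genes left) and a quasi-likelihood F test with 20 residual degrees of freedom. P-values were Benjamini-Hochberg adjusted over all genes tested and called under 0.05. Each SE was obtained as |log2 change| over the square root of F. CPM are counts on TMM-scaled library sizes, except those of the cell type markers, which are scaled to all gene reads without TMM. Without the 3 DMSO libraries that held transcripts of another line there were 15741 genes. Those libraries were recognised by genes with at least 20 CPM in one line and under 0.5 CPM in the others. Where lines served as replicates, 13830 genes were tested. Alternatives were DESeq2 1.42.0, its size factors, no filter, unstranded counts, a replicate block, the line's own 6 libraries alone and leaving out each library. The test was also run on simulated counts. Each gene had the same mean in all groups there, apart from changes set in TALL-1 DAC libraries. Differences between lines were therefore not part of that check.

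Groups follow the sample titles; for PEER DMSO, titles and file names exchange replicates 2 and 3. The labels do not say whether libraries of a group are separate cultures, so the p-values describe the spread between libraries, and that spread may be technical. No pair of libraries within a group agreed within sampling noise (chi-square per degree of freedom 2.13 to 45.9 over 30 pairs). Replicate numbers were taken as pairs only in PER-117, where the deviations of same-numbered libraries correlated at 0.29, 0.38 and 0.51. Depth was 2.20 M to 15.4 M gene reads per library. Counting intervals and floors cover counting error only, since reads carry no molecular identifiers.

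The members, lists and tests were chosen with earlier results of these data known. Besides the 10 members, a list's named genes are up to 3 called genes per line with the largest log2 change, and the most similar genes are the 5 with the highest mean r with the members. A gene that this rule names is not reported here.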

Additional observations from a re-analysis of the deposited data

Results flagged for a closer look

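The response to decitabine differed between the lines for 2 of the 10 genes by a test of the difference itself. These were MTHFD2 (adjusted p = 0.00872 over the 5 lines) and CHAC1 (adjusted p = 0.0390), by edgeR's quasi-likelihood F test. For MTHFD2 the difference was 1.52 log2 units for PEER minus TALL-1, -1.56 for TALL-1 minus MOLT-16, -1.63 for TALL-1 minus Loucy and -1.69 for TALL-1 minus PER-117. CHAC1 differed by -4.53 for TALL-1 minus PER-117, and DDIT3 by 2.30 for TALL-1 minus MOLT-16. TALL-1 DMSO replicate 3, which held PEER transcripts, enters each of these differences. Without it and the other 2 such libraries they were 1.68, -1.67, -1.96 and -2.03 for MTHFD2, -4.86 for CHAC1 and 2.54 for DDIT3, all still past the threshold.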

How the results depend on the processing

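Of 10 genes, the calls, in the order PEER, then TALL-1, then MOLT-16, then Loucy, then PER-117, were 0, 4, 0, 0 and 0, with 2 for the difference between the 5 lines and 6 of 100 for pairs of lines. With no filter on low counts they were 6, 6, 8, 2 and 4 (against 3.11%, 5.95%, 3.1%, 8.25% and 6.14% of all genes), then 10 (9.47%) and 34 (2.72%). Without the 3 libraries with transcripts of another line they were 5, 6, 9, 1 and 3 (5.6%, 14%, 17.7%, 22.5% and 17.5%), then 10 (27.8%) and 36 (8.1%). DESeq2 called 0, 4, 2, 1 and 1 (5.4%, 15%, 5.28%, 16% and 13.4%), then 2 (21.8%) and 12 (5.7%). Unstranded counts gave 1 in MOLT-16 (3%). The 6 libraries of a line alone gave 1 in PEER (2.57%), 5 in TALL-1 (17%), 1 in Loucy (24.4%) and 5 in PER-117 (24.4%). The replicate block gave 5 in TALL-1 (12.9%), 6 in MOLT-16 (3.76%), 3 in PER-117 (12.6%), 5 for the 5 lines (13.5%) and 18 pairs (3.81%). The cause was not tested. Leaving out 1 library at a time gave 0 to 1 calls in PEER, 3 to 5 in TALL-1, 0 to 8 in MOLT-16, 0 to 0 in Loucy, 0 to 1 in PER-117, 1 to 8 for the 5 lines and 3 to 23 pairs. It gave 10 to 10 for untreated levels and 64 to 76 for untreated pairs. Over the same fits 1.14% to 12.6% of all genes were called in MOLT-16. For the 5 lines the share was 10.4% to 24.2%, and for the pairs 2.8% to 7.21%. All 3 shares were highest without MOLT-16 DMSO replicate 3. For the other lines and the untreated levels these shares of all genes are not given here. The motif TGATGCAA alone was found in 1 member in place of 2. GGH in TALL-1, at -2.56, stood at 0.34 without the 3 libraries, and between -3.06 and 0.34 when 1 library was left out, with 0.34 without TALL-1 DMSO replicate 3. In single genes of the 10, 2417 of 2568 values under alternatives stayed on the same side of the threshold, 128 passed it newly and 23 no longer did. These values include tests without a direction and fits that left out a library of another line. Direction was compared only where a value was called, so changes of sign among uncalled values are not counted. Same-numbered libraries correlated from -0.40 to 0.51, and 7 of 15 correlated best with their own number. CHAC1 and PSAT1 had 6 and 5 reads in Loucy DMSO libraries, and their ratios there carry wide counting intervals.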
